A study of Homo sapiens with 4 samples.

Results

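The subunits of the hypoxia-inducible factors (HIF) and the hydroxylases that sense oxygen for them were examined as a group of 9 genes, chosen by name for their place in this pathway. EPAS1 (encoding HIF-2α), HIF1A and HIF3A encode the alpha subunits, and ARNT and ARNT2 the beta subunits. EGLN1, EGLN2 and EGLN3 encode the prolyl hydroxylases PHD2, PHD1 and PHD3, and HIF1AN encodes the asparaginyl hydroxylase FIH. Of the 9 genes, 8 had a row in the table of 12912 genes, and HIF3A was not analysed here. The cells were 786-O, a human clear cell renal carcinoma line without functional VHL, in a version that stably carries a retroviral triple reporter of GFP, luciferase and thymidine kinase. 786-O-Ctrl is this VHL-null line, and 786-O-VHL is the same line with VHL restored through a retroviral vector for HA-tagged wild-type VHL. RNA-seq of cells grown in RPMI1640 with serum gave 2 libraries per group, and the comparison asks what VHL restoration does to mRNA levels. Each group is a single subline and separate cultures are not described, so the p-values measure only the spread between these libraries, which may be technical.

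HIF is a dimer of an alpha and a beta subunit that binds DNA at hypoxia response elements with the core ACGTG or GCGTG. When oxygen is present, the EGLN enzymes hydroxylate prolines of the alpha subunit, VHL binds the hydroxylated protein as the substrate receptor of a ubiquitin ligase, and the protein is degraded, while HIF1AN hydroxylates an asparagine and thereby blocks the binding of the coactivators p300 and CBP. Cells without VHL, as in most clear cell renal carcinomas, keep HIF alpha protein in the presence of oxygen, and 786-O is known to rely on HIF-2α and to make no functional HIF-1α protein. EGLN3 and EGLN1 are themselves known HIF target genes.

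The 786-O-Ctrl libraries, called here the deeper and the shallower one, held 22141263 and 15714166 counts, and replicates 1 and 2 of 786-O-VHL held 2807779 and 16114120. Levels are given as CPM, counts relative to the library total after scaling by edgeR's TMM factors. In 786-O-VHL replicate 1, the shallowest library, 3 counts correspond to 1.02 CPM, against 0.142 to 0.199 CPM in the other libraries. Log2 fold changes compare 786-O-VHL with 786-O-Ctrl, are positive where 786-O-VHL was higher, and come from edgeR's quasi-likelihood test over 12335 genes, and FDR is the Benjamini-Hochberg adjusted p over all of these. All 8 genes passed the filter on low counts.

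Restoring VHL went with higher EPAS1 and HIF1A mRNA and with a fall of EGLN3 mRNA by a factor of 20.6. The other hydroxylases and ARNT changed little or did not pass the test. At an FDR under 0.05, 3 of the 8 genes were higher in 786-O-VHL (EPAS1, HIF1A and ARNT2), where 32.6% of all tested genes were higher. HIF1AN and EGLN3, 2 of the 8, were lower, where 31.9% of all tested genes were lower, so neither count stands out from the background. EGLN3 was the only one of the 8 to change by over 4-fold at an FDR under 0.01, a threshold passed downward by 1.54% and upward by 2.92% of the tested genes. The CPM values of the groups did not overlap for 7 of the 8, all but EGLN1, and for 80.0% of all tested genes. The median log2 fold change was 0.19 over the 8 genes and 0.02 over all tested genes.

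**Figure D1:**
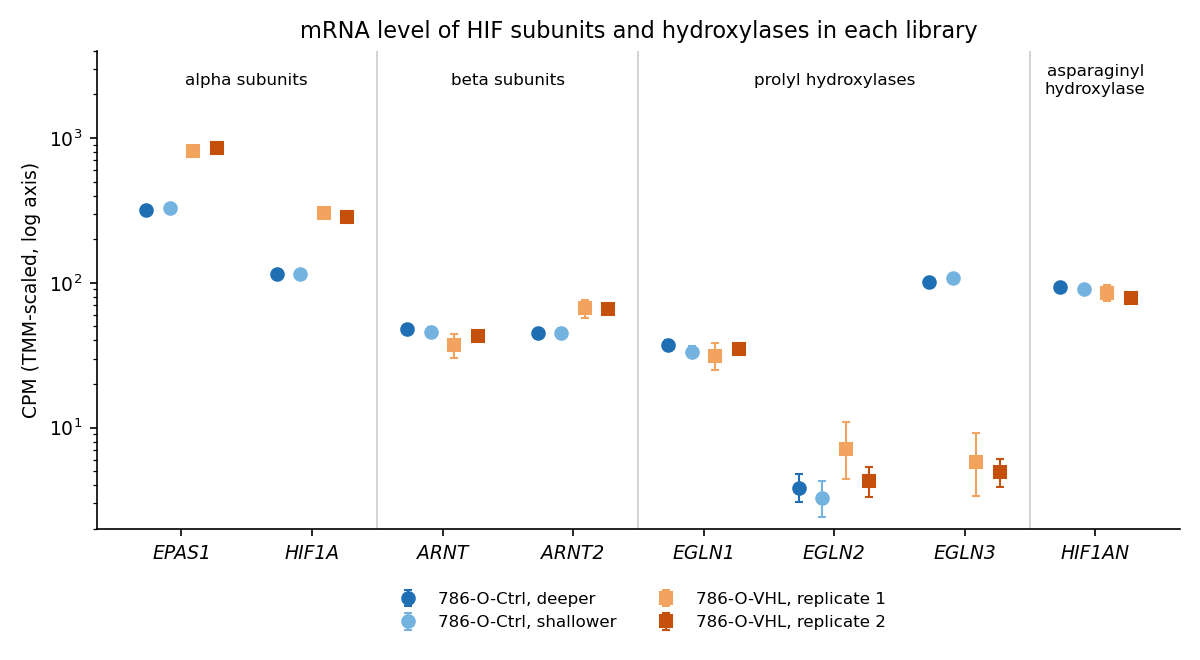
CPM of each gene in each library on a log axis, grouped by role. Circles are 786-O-Ctrl, squares are 786-O-VHL, and bars are exact Poisson 95% intervals of the counts, which cover counting error only. EPAS1 and HIF1A sit higher with VHL restored, and EGLN3 drops from 101 and 108 CPM to 5.77 and 4.93 CPM.

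EPAS1 (ENSG00000116016.14) spans 46520806 to 46613836 on chromosome 2 of GRCh37, plus strand, with no other annotated gene over it. EPAS1 mRNA was at 319 CPM in the deeper and 329.6 CPM in the shallower 786-O-Ctrl library, against 813 CPM in replicate 1 and 856 CPM in replicate 2 of 786-O-VHL. Both 786-O-VHL libraries were thus well above both 786-O-Ctrl libraries, and the ratio between any pair of libraries lay between 2.47 and 2.69. The means were 324 ± 7.80 and 835 ± 30.3 CPM (SD, n = 2 each). This gave a log2 fold change of 1.37 (standard error 0.0613, 95% interval 1.24 to 1.49, edgeR FDR = 3.225e-17). EPAS1 mRNA was therefore higher in the subline in which VHL, which directs HIF-2α protein to degradation, had been restored, and the protein was not analysed here.

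HIF1A (ENSG00000100644.17) lies on the plus strand of chromosome 14 from 62162231 to 62214977, with antisense genes HIF1A-AS1 and HIF1A-AS3 across from it. Annotated genes on the same strand share 148 exon bases with HIF1A. HIF1A mRNA was at 116 CPM in the deeper and 114 CPM in the shallower 786-O-Ctrl library, against 303 CPM in replicate 1 and 286 CPM in replicate 2 of 786-O-VHL. The groups did not overlap, and every 786-O-VHL library was at least 2.47 times as high as every 786-O-Ctrl library. For HIF1A the log2 fold change came to 1.35 (standard error 0.064, 95% interval 1.21 to 1.48, edgeR FDR = 1.183e-16), and its interval overlaps that of EPAS1. A line that makes no functional HIF-1α protein thus held HIF1A mRNA in all 4 libraries. Of the 12335 tested genes, 6.01% had a log2 fold change at least as high as EPAS1 and 6.16% one at least as high as HIF1A.

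Per kilobase of annotated exon, where levels of different genes can be set side by side, EPAS1 was the more abundant alpha mRNA in every library. EPAS1 stood at 43.7 and 45.2 CPM per kb in 786-O-Ctrl against 112 and 117 CPM per kb in 786-O-VHL, and HIF1A at 22.5 and 22.2 and at 58.7 and 55.5 CPM per kb. Among 12200 tested genes with a known length, the level of EPAS1 was above that of 92.1% in 786-O-Ctrl and of 97.9% in 786-O-VHL, and the level of HIF1A above that of 83.0% and 95.1%. The EPAS1 share of the summed EPAS1 and HIF1A mRNA was 66.0% and 67.1% in 786-O-Ctrl against 65.5% and 67.9% in 786-O-VHL. These shares overlapped between the groups and differed by 0.159 percentage points in their means, less than the spread within either group. The sign of so small a difference rests on single libraries, at -0.384 points without the deeper 786-O-Ctrl library and -1.05 points without 786-O-VHL replicate 2. The summed alpha mRNA rose from 66.2 and 67.4 to 170.3 and 173 CPM per kb, 2.57 times as high in the means.

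Since EPAS1 and HIF1A moved together, the bases before their start sites are shown, with those of EGLN1 and EGLN3, the hydroxylase genes best known as HIF targets. The sequences are RefSeq's, on GRCh38.p14, 5′ to 3′ on the strand of the gene, and each holds the 250 bases that end just before the start site. Capitals mark matches to the hypoxia response element cores ACGTG and GCGTG, searched on both strands. The stretches are chr2:46297157-46297406 (plus strand) for EPAS1, chr14:61695263-61695512 (plus strand) for HIF1A, chr1:231422288-231422537 (minus strand) for EGLN1 and chr14:33951075-33951324 (minus strand) for EGLN3.
EPAS1: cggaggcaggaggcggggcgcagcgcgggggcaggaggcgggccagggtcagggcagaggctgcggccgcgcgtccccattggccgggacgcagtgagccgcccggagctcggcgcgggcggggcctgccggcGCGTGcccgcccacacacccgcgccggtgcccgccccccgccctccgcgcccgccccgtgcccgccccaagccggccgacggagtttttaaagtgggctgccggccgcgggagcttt
HIF1A: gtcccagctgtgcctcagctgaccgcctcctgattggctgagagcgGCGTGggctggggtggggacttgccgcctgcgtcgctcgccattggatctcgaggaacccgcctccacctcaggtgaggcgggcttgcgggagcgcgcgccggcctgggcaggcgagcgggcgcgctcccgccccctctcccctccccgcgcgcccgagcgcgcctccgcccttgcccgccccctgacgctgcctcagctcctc
EGLN1: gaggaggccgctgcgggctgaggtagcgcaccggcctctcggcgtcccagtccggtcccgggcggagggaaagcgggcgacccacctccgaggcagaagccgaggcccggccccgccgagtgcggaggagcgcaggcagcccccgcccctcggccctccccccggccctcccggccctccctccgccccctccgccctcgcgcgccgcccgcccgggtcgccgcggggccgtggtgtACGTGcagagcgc
EGLN3: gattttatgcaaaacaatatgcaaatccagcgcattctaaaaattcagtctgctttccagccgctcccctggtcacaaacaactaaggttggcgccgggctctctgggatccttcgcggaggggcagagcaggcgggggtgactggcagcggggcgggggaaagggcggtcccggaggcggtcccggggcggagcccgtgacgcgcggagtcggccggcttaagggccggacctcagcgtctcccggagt
EPAS1 held 1 match, GCGTG beginning 117 bases before the start site. HIF1A held 1 match, GCGTG beginning 204 bases before the start site shown, and none before its other listed start site. EGLN1 held 1 match, ACGTG beginning 13 bases before the start site. EGLN3, whose mRNA fell most of the 8, held none in this window. ARNT and HIF1AN held none either, 1 of the 2 start sites listed for EGLN2 had the palindrome CACGTG, which is read as ACGTG on both strands, and ARNT2 was not in the promoter table. HIF3A, which had no row of counts, held 3 matches before 1 of its 3 listed start sites, GCGTG beginning 193, 74 and 52 bases upstream, and none before the others. Of all 35116 promoters in the table, 43.2% held at least 1 match in the same window, so a match is common and describes the letters only.

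ARNT (ENSG00000143437.21), the beta subunit that all cells are thought to use, spans 150782189 to 150849184 on chromosome 1 of GRCh37, minus strand. ARNT mRNA was at 47.7 CPM in the deeper and 45.9 CPM in the shallower 786-O-Ctrl library, against 37 CPM in replicate 1 and 43.0 CPM in replicate 2 of 786-O-VHL. The 786-O-VHL values were the lower ones, but the nearest libraries of the groups were only a few CPM apart. The log2 fold change of -0.17 (standard error 0.0891, 95% interval -0.36 to 0.01) did not pass the test (edgeR FDR = 0.0901). Without 786-O-VHL replicate 2 it was -0.35 (edgeR FDR = 0.0471), and with library totals in place of TMM it was -0.04 (edgeR FDR = 0.704).

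ARNT2 (ENSG00000172379.21), the paralog best known from neurons and kidney, lies on the plus strand of chromosome 15 from 80696692 to 80890274, with annotated genes on the opposite strand. ARNT2 mRNA was at 45.1 CPM in the deeper and 45.3 CPM in the shallower 786-O-Ctrl library, against 66.5 CPM in replicate 1 and 65.6 CPM in replicate 2 of 786-O-VHL. The libraries within a group were nearly equal and the groups did not overlap. For ARNT2 the log2 fold change came to 0.54 (standard error 0.0781, 95% interval 0.38 to 0.70, edgeR FDR = 7.273e-07), a 1.46-fold rise. Among all tested genes, 21.7% had a log2 fold change at least as high.

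With ARNT2 up and ARNT level or lower, the makeup of the beta subunit mRNA shifted. Per kilobase of exon, ARNT made up 56.0% and 54.8% of the summed ARNT and ARNT2 mRNA in 786-O-Ctrl against 40.0% and 44% in 786-O-VHL. ARNT was thus the larger part in both 786-O-Ctrl libraries and the smaller part in both 786-O-VHL libraries. The mean share changed by -13.4 percentage points, which was larger than the spread within groups (SD 0.798 and 2.84), with p = 0.333 in the exact two-sided permutation test, the smallest p that 2 libraries against 2 allow. The summed beta mRNA was at 13.2 and 13.0 CPM per kb in 786-O-Ctrl against 14.3 and 15.1 in 786-O-VHL. The alpha mRNAs together were higher than the beta mRNAs together in every library on this scale.

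EGLN3 (ENSG00000129521.13), which encodes PHD3, lies on the minus strand of chromosome 14; a later version of this gene model, used here for its position, spans 34393433 to 34931980 of GRCh37 and shares no exon base with the other annotated genes inside that span. EGLN3 had 2135 counts in the deeper and 1624 in the shallower 786-O-Ctrl library, against 17 counts in replicate 1 and 83 in replicate 2 of 786-O-VHL. These counts correspond to 101 and 108 CPM in 786-O-Ctrl against 5.77 and 4.93 CPM in 786-O-VHL. Both 786-O-VHL libraries were far below both 786-O-Ctrl libraries, by 17.6 to 21.9 times for the pairs of libraries. For EGLN3 the log2 fold change came to -4.36 (standard error 0.116, 95% interval -4.60 to -4.13, edgeR FDR = 7.33e-22). Only 29 of the 12335 tested genes had a log2 fold change at least as low. EGLN3 mRNA remained detectable after VHL restoration, since even 17 counts have an exact Poisson 95% interval of 3.36 to 9.23 CPM, above the 1.02 CPM that 3 counts give in that library. This interval covers counting error only.

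EGLN1 (ENSG00000135766.9), which encodes PHD2, the main hydroxylase of HIF alpha in most cells, lies on the minus strand of chromosome 1 from 231499497 to 231558033. EGLN1 mRNA was at 37.4 CPM in the deeper and 33.6 CPM in the shallower 786-O-Ctrl library, against 31.2 CPM in replicate 1 and 35.1 CPM in replicate 2 of 786-O-VHL. The groups overlapped. The log2 fold change of -0.06 had a 95% interval from -0.27 to 0.15 (edgeR FDR = 0.614), far from that of EGLN3. Its sign was the opposite with library totals in place of TMM (0.07) and without the deeper 786-O-Ctrl library (0.01). An annotated gene on the same strand shares 3004 exon bases with EGLN1, and reads there may have been assigned to either or to neither.

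EGLN2 (ENSG00000269858.6), which encodes PHD1, lies on the plus strand of chromosome 19 from 41304901 to 41314339, inside the readthrough gene RAB4B-EGLN2. EGLN2 had few counts, 81 and 49 in 786-O-Ctrl against 21 and 72 in 786-O-VHL replicates 1 and 2. The corresponding levels were 3.85 and 3.26 CPM in 786-O-Ctrl against 7.12 and 4.28 CPM in 786-O-VHL. Replicate 1 of 786-O-VHL stood above the rest, with an exact Poisson 95% interval of 4.41 to 10.9 CPM, and replicate 2 was close to the 786-O-Ctrl libraries. The log2 fold change of 0.45 (standard error 0.272, 95% interval -0.11 to 1.00) did not pass the test (edgeR FDR = 0.155). Without 786-O-VHL replicate 2 it was 0.98 (edgeR FDR = 0.0479), without replicate 1 it was 0.25, and after thinning to equal depth it was 1.06 (edgeR FDR = 0.0263). Genes on the same strand share 2012 exon bases with EGLN2, so its level is uncertain.

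Within the EGLN family the fall of EGLN3 changed which mRNA was the largest on the counts as given. EGLN3 stood at 13.8 and 14.7 CPM per kb of exon in 786-O-Ctrl against 0.783 and 0.669 in 786-O-VHL, and EGLN1 at 6.95 and 6.24 and at 5.80 and 6.52. EGLN3 made up 64.6% and 68.5% of the summed EGLN mRNA in 786-O-Ctrl against 10.2% and 8.54% in 786-O-VHL. EGLN3 was the largest in both 786-O-Ctrl libraries, and EGLN1 in both 786-O-VHL libraries. Same-strand genes share 3004 exon bases with EGLN1 and 2012 with EGLN2, but none with EGLN3. Reads there may have been assigned to either gene or to neither, so this ranking, the shares and the summed level are uncertain. The mean share changed by -57.2 percentage points against SDs of 2.76 and 1.19, with p = 0.333 in the exact two-sided permutation test, its smallest possible value. The summed EGLN mRNA fell from 21.3 and 21.4 to 7.67 and 7.84 CPM per kb, 2.75 times lower in the means. With the length of the canonical transcript, which is 2706 bases for EGLN3 against 7363 bases over all its annotated exons, the change was -63.6 points.

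**Figure D2:**
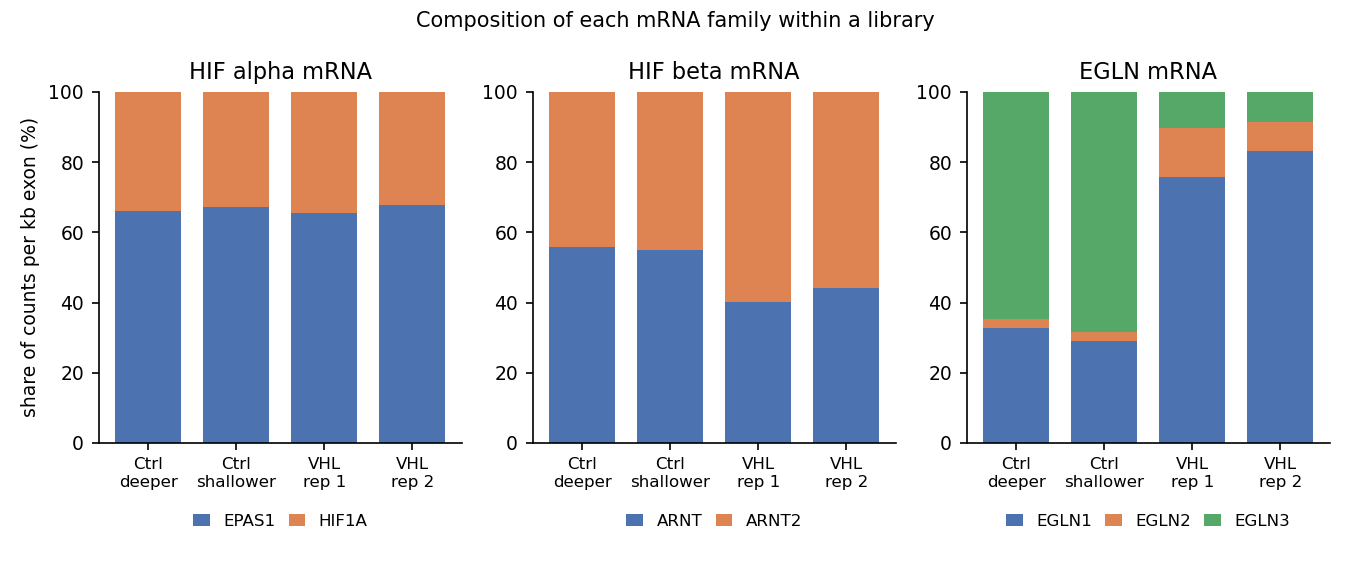
Share of each gene in the summed counts per kilobase of exon of its family, in percent, for each of the 4 libraries. The EPAS1 share of HIF alpha mRNA lies between 65.5% and 67.9% in every library. ARNT drops from about 55.4% to 42.0% on average, and EGLN3 from 66.6% to 9.38%. EGLN1 and EGLN2 share exon bases with other genes on the same strand, so the EGLN shares are uncertain.

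HIF1AN (ENSG00000166135.14), which encodes FIH, lies on the plus strand of chromosome 10 from 102288829 to 102319755, with NDUFB8 and another gene partly across from it. HIF1AN mRNA was at 94.0 CPM in the deeper and 91.2 CPM in the shallower 786-O-Ctrl library, against 84.8 CPM in replicate 1 and 78.4 CPM in replicate 2 of 786-O-VHL. The groups did not overlap, but lay close to each other. The log2 fold change was -0.21 (standard error 0.0707, 95% interval -0.35 to -0.06, edgeR FDR = 0.0112). This call was lost with DESeq2 (-0.21, FDR = 0.104), with library totals in place of TMM (-0.08, edgeR FDR = 0.351), after thinning to equal depth (-0.20, edgeR FDR = 0.118) and without either 786-O-Ctrl library or 786-O-VHL replicate 2, at -0.18, -0.23 and -0.13 (edgeR FDR = 0.183, 0.0815 and 0.278). Library totals alone shift the median log2 fold change of all tested genes from 0.02 to 0.15, and the genes called from 4017 higher and 3939 lower to 5077 higher and 3097 lower.

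**Figure D3:**
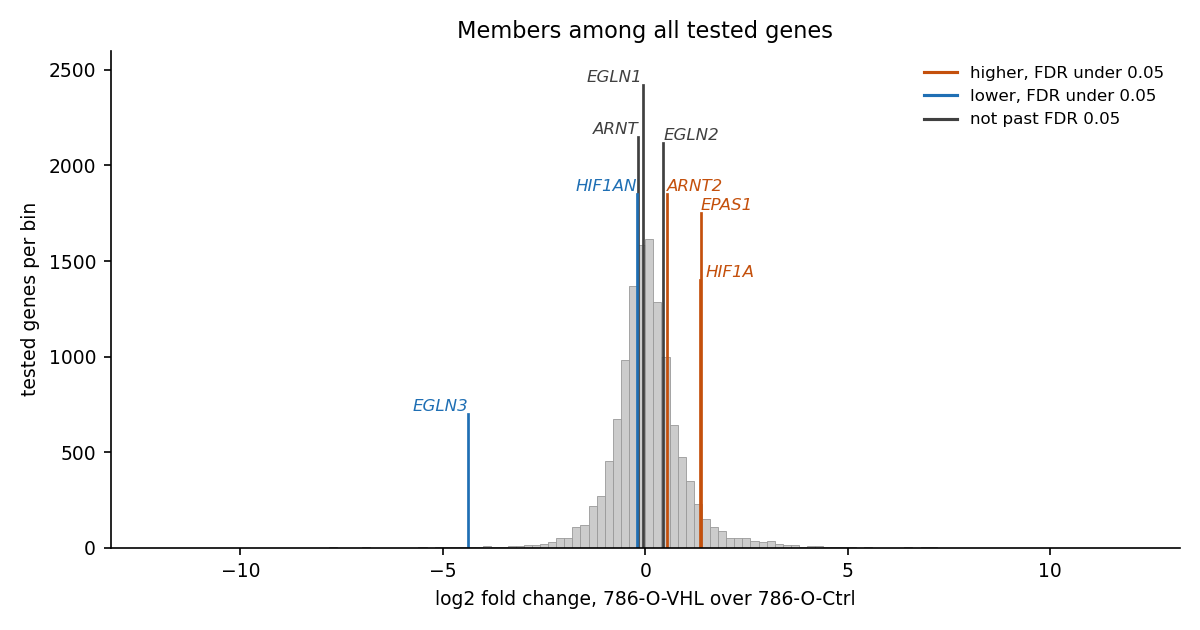
Log2 fold changes of the 8 genes, as labelled lines, over the histogram of all 12335 tested genes (grey, genes per bin); line heights carry no value. EGLN3 at -4.36 stands in the far lower tail, EPAS1 at 1.37 and HIF1A at 1.35 lie in the upper flank, and the others lie within the bulk; EGLN1 changes sign with library totals in place of TMM.

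The genes whose pattern over the 4 libraries was most like each of EGLN3, HIF1A and EPAS1 were found by the root mean square difference of their centred log2 CPM. For this, edgeR adds a small count to every value before the log, which draws low values towards each other. For EGLN3 these were MME, UPK1B and FAM111B, with differences of 0.0709, 0.117 and 0.193 and log2 fold changes of -4.38, -4.98 and -4.28. MME, which encodes the membrane protease neprilysin, was at 33.2 and 36.6 CPM in 786-O-Ctrl against 1.70 and 1.66 CPM in 786-O-VHL. UPK1B was at 0.339 and 0.238 CPM in 786-O-VHL, and its value in replicate 1 is under the 1.02 CPM that 3 counts give there. The added count weighs most on such low values, so the place of UPK1B in this ranking is uncertain. For HIF1A they were ULBP1, NXNL2 and MIDN, with differences of 0.0236, 0.0246 and 0.0305 and log2 fold changes of 1.32, 1.34 and 1.39. For EPAS1 they were TCEA1, AGT and UCP2, with differences of 0.016, 0.017 and 0.0208 and log2 fold changes between 1.38 and 1.46. TCEA1, a transcription elongation factor, was also close in level, at 313 and 331 CPM in 786-O-Ctrl against 824 and 852 CPM in 786-O-VHL. UCP2 encodes a mitochondrial carrier and AGT angiotensinogen.

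The ligase that reads the hydroxylation mark was followed through 6 genes, of which NEDD8 was not analysed here. VHL mRNA was at 42.9 and 43.9 CPM in 786-O-Ctrl against 178 and 163 CPM in 786-O-VHL, which checks the labels of the libraries; counts per gene do not separate vector from endogenous transcripts. Of the 5 tested genes, 2 were higher, VHL itself among them, and 2 were lower at an FDR under 0.05, near the 32.6% and 31.9% of all tested genes. RBX1, the RING subunit, fell by 0.84 on the log2 scale (edgeR FDR = 8.289e-10), from 72.3 and 66.7 to 40.7 and 38.4 CPM. The adaptors ELOB and ELOC had small changes of 0.21 and -0.17 (edgeR FDR = 0.00601 and 0.0272), calls that were lost with DESeq2, at FDR values of 0.0627 and 0.0865, and without the shallower 786-O-Ctrl library, at edgeR FDR values of 0.224 and 0.176. The ELOC call was also lost with library totals in place of TMM, without the deeper 786-O-Ctrl library and without 786-O-VHL replicate 1 (edgeR FDR = 0.617, 0.101 and 0.0637), and the ELOB call after thinning (0.12, edgeR FDR = 0.249), while ELOB was at 0.35 with library totals. Without 786-O-VHL replicate 2, ELOC was at -0.30. The scaffold CUL2 was at 79.9 and 72.6 CPM in 786-O-Ctrl against 72.3 and 75.7 CPM in 786-O-VHL, and the groups overlapped.

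Among 8 coactivators of HIF and their inhibitors, 3 were higher and 2 lower, close to the 32.6% and 31.9% of all tested genes, with a median log2 fold change of 0.07. CITED4 and CITED2, which compete with HIF alpha for p300 and CBP, rose by 1.93 and 0.69 (edgeR FDR = 5.719e-08 and 4.679e-10), and CREBBP, which encodes CBP, by 0.43 (edgeR FDR = 2.399e-06). EP300, which encodes p300, was at 88.2 and 93.3 CPM in 786-O-Ctrl against 96.3 and 96.9 CPM in 786-O-VHL and did not pass the test (edgeR FDR = 0.236). The ATPases RUVBL1 and RUVBL2 fell, with log2 fold changes of -0.66 and -0.42, the latter at -0.64 without 786-O-VHL replicate 2.

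Of 13 genes whose products act on the stability of HIF alpha or of the hydroxylases, 7 were higher and 4 lower, where 32.6% and 31.9% of all tested genes were, with a median of 0.16; whether 7 exceeds the background was not tested. The chaperones HSP90AA1 and HSP90AB1, whose products hold HIF alpha stable, fell most, with log2 fold changes of -1.71 and -1.15 (edgeR FDR = 4.218e-19 and 1.354e-15). HSP90AA1 went from 1820.1 and 1739 CPM in 786-O-Ctrl to 567 and 526 CPM in 786-O-VHL. The cochaperone PTGES3 fell by 0.48. SIAH1, a ubiquitin ligase that acts on EGLN proteins, USP20, a deubiquitinase of HIF-1α, and P4HTM, a membrane-bound prolyl hydroxylase, rose by 0.79, 0.76 and 0.56 (edgeR FDR = 0.00163, 3.285e-08 and 5.262e-06). The SIAH1 value rests partly on 786-O-VHL replicate 1, at 1.35 without replicate 2.

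Of 9 other tested genes of the bHLH-PAS family, to which HIF alpha and ARNT belong, 5 were higher and 2 lower, against 32.6% and 31.9% of all tested genes, with a median of 1.08 and no test of these counts. After thinning to equal depth, 3 of these genes were called higher, where 2865 of all 10825 tested genes were. With all counts, AHRR, NPAS1 and BMAL1 rose most, by 2.40, 1.89 and 1.21 (edgeR FDR = 4.503e-06, 5.308e-05 and 2.33e-09). AHRR had 12 counts in each 786-O-Ctrl library and 10 and 61 counts in 786-O-VHL, and its identifier was not found in the annotation used for positions. The NPAS1 call, on 9 to 71 counts per library, was lost without 786-O-VHL replicate 2 (log2 fold change 1.51, edgeR FDR = 0.088). BMAL2 and CLOCK fell, with log2 fold changes of -0.79 and -0.39, the latter at -0.25 with library totals in place of TMM.

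**Figure D4:**
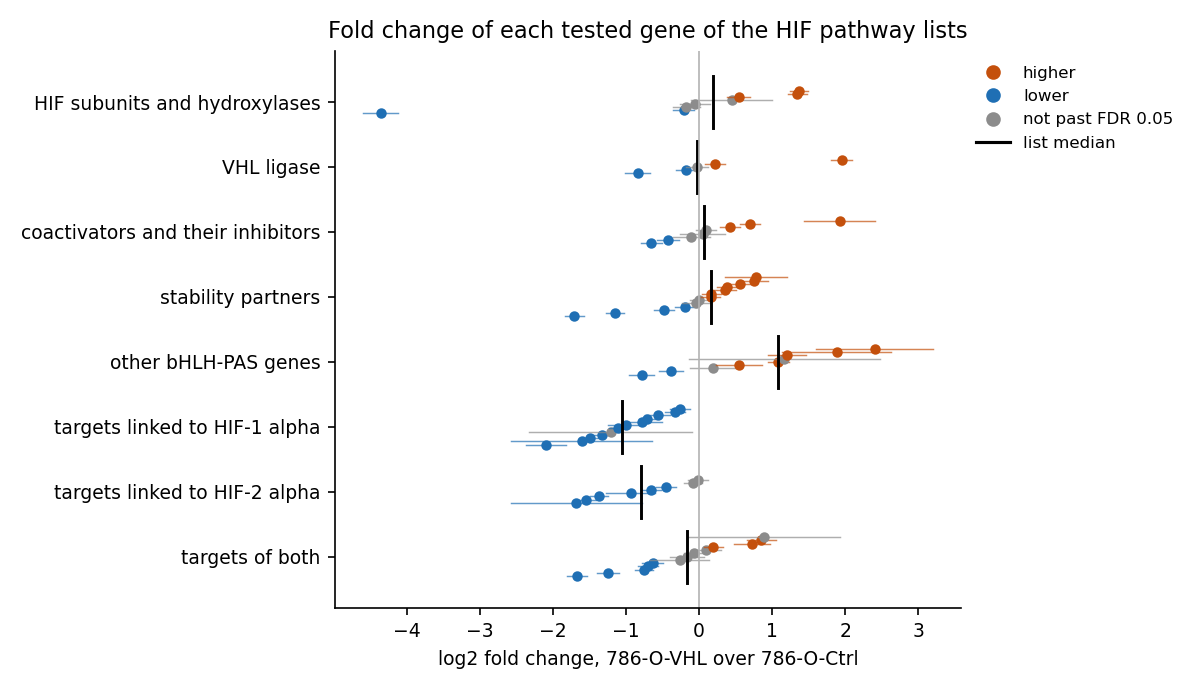
Log2 fold change (x axis) of each tested gene of the HIF pathway lists, with its 95% interval as a thin line and the median of each list as a black bar. The lists of HIF targets linked to one alpha subunit lie to the left of 0 with no gene called higher, while the other lists have genes on both sides; EGLN3 is the point farthest to the left.

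HIF target genes linked mainly to a single alpha subunit ran opposite to the mRNAs of EPAS1 and HIF1A. The lists were chosen with earlier results of these libraries known, so their direction is no independent evidence. Because 786-O makes no functional HIF-1α protein, the HIF-1α list only names these genes and is no measure of HIF-1α activity in these cells. Of 12 genes linked mainly to HIF-1α, 11 were lower and none higher at an edgeR FDR under 0.05, where 31.9% of all tested genes were lower and 32.6% higher, with a median of -1.06, and CA9 missed the threshold (edgeR FDR = 0.0536). PFKFB4, ALDOC and TPI1 fell most, with log2 fold changes of -2.10, -1.61 and -1.49. ALDOC had 43 and 39 counts in 786-O-Ctrl against 0 and 15 in 786-O-VHL, and missed the threshold with DESeq2 (FDR = 0.053). Without 786-O-VHL replicate 1 its log2 fold change was -1.35, and without replicate 2 the group has no count of it. Of 8 tested genes linked to HIF-2α in renal carcinoma, 6 were lower and none higher, beside the same shares of all tested genes, with a median of -0.80, and EPO and CXCR4 were not analysed here. POU5F1, TGFA and CCND1 fell most, with log2 fold changes of -1.68, -1.55 and -1.37. POU5F1 rests on 4 and 13 counts in 786-O-VHL, its reads may be shared with near-identical pseudogenes, and its call was lost without the shallower 786-O-Ctrl library and without 786-O-VHL replicate 2, at -1.30 and -1.05 (edgeR FDR = 0.0547 and 0.272), both nearer to 0 than TGFA and CCND1. Of 13 targets of both, 5 were lower and 3 higher, near the 31.9% and 32.6% of all tested genes, with a median of -0.17. SLC2A1, ADM and NDRG1 had log2 fold changes of -1.68, -1.25 and -0.76, and MXI1, TMEM45A and BHLHE40 of 0.85, 0.72 and 0.20, with TMEM45A at 0.45 after thinning to equal depth. The BHLHE40 call was lost with DESeq2 and without either 786-O-Ctrl library (FDR = 0.0565, 0.228 and 0.0842), and its log2 fold change was 0.33 with library totals in place of TMM.

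The identity of the cells was checked with marker genes. All 7 renal carcinoma cell markers had counts, with a summed level of 3311 and 3300.1 CPM in 786-O-Ctrl against 1944 and 1943 CPM in 786-O-VHL, of which VIM was the most abundant. VIM, PAX8 and KRT8 had log2 fold changes of -1.21, -0.90 and -0.56 and EPCAM of 1.20, with 4 of the 7 lower and 1 higher at an edgeR FDR under 0.05, where 31.9% of all tested genes were lower and 32.6% higher. The leukocyte markers, 4 genes, were not analysed here. Of the endothelial markers only PECAM1 had a row, at 0.427 and 0.266 CPM in 786-O-Ctrl against 0.339 and 0.356 CPM in 786-O-VHL, too low to be tested. Of 4 fibroblast markers, COL1A1 and PDGFRB had a row, and their summed level was 9.64 and 9.97 CPM in 786-O-Ctrl against 12.9 and 12.6 CPM in 786-O-VHL. PDGFRB rose by 0.70 (edgeR FDR = 0.0147), a call lost with DESeq2 and without the deeper 786-O-Ctrl library or 786-O-VHL replicate 2 (FDR = 0.162, 0.242 and 0.248), while after thinning to equal depth it was at 1.25 (edgeR FDR = 0.0148). Whether the lower renal markers had a part in the changes of the HIF genes was not tested, and in these bulk libraries fewer cells with a transcript and less of it per cell cannot be told apart.

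**Figure D5:**
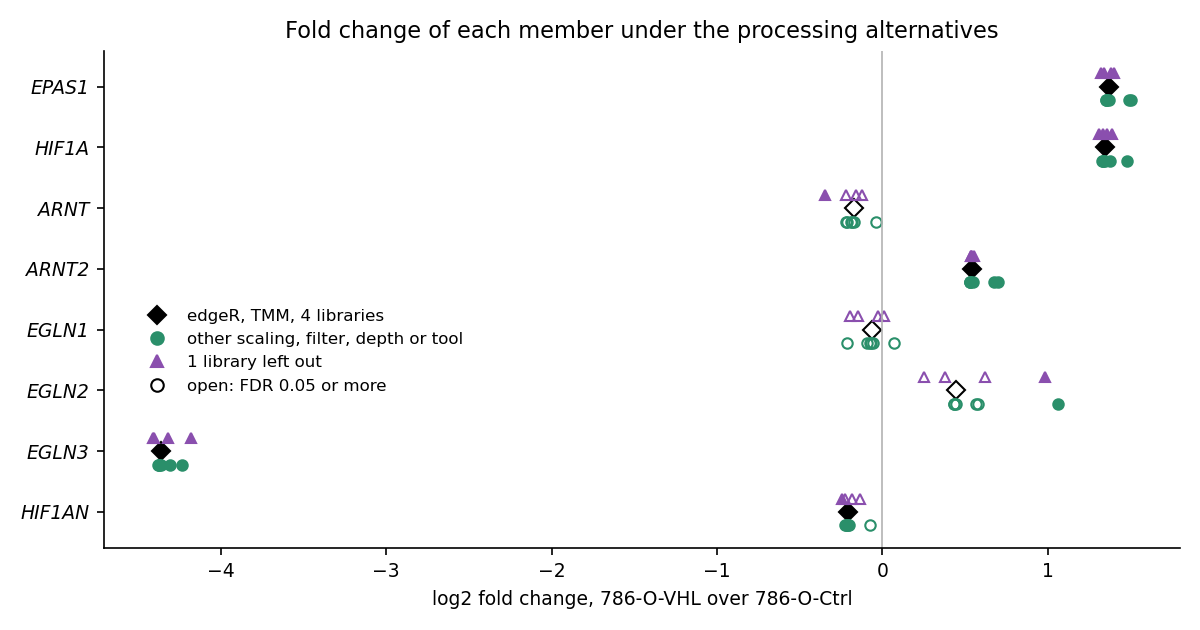
Log2 fold change of each of the 8 genes with edgeR, TMM and all 4 libraries (diamonds), under another scaling, filter, depth or tool (circles) and with 1 library left out (triangles); filled symbols are under an FDR of 0.05. EPAS1, HIF1A, ARNT2 and EGLN3 keep their direction and call in all 10 alternatives, while EGLN1 changes sign in 2 of them.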

How the data were processed

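Total RNA of both sublines was made into Illumina TruSeq libraries, 2 per subline. The authors aligned reads to hg19, and the deposited table holds raw counts per gene for 12912 genes; the submitters' processing notes name CASAVA and STAR without versions, while how reads were counted, whether by strand and on which annotation is not given in the sources used here. Both 786-O-Ctrl columns carry the same replicate number, so these libraries are named by depth. Replicates differed by more than sampling noise (chi-square per degree of freedom 2.25 within 786-O-Ctrl, 2.76 within 786-O-VHL).

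The test was that of edgeR 4.0.16, run in R 4.3.3 (filterByExpr with a minimum count of 10, TMM, quasi-likelihood test, Benjamini-Hochberg over 12335 genes), checked on simulated counts. Standard errors and 95% intervals are those implied by the F statistic. FDR values rest on a spread shared between genes, since 2 libraries against 2 allow no permutation p under 0.333. Exon lengths, positions and overlaps came from GENCODE's annotation on GRCh37, in which 12749 of the 12912 identifiers were found, some in another version. Alternatives were DESeq2 1.42.0, RLE size factors, library totals alone, no filter, at least 10 counts in every library, thinning to the shallowest library, each library left out in turn, and for shares counts not divided by length; the length of the canonical transcript was added after seeing the data. Named genes were the 9 members, for each list up to 3 genes in either direction by size of change at an FDR under 0.05, all of the VHL ligase, and the 3 genes most alike to each of EGLN3, HIF1A and EPAS1; CA9, EP300 and PECAM1 were named after their values were seen. Members and lists were chosen with earlier results of these data known.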

Additional observations from a re-analysis of the deposited data

How the results depend on the processing

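No paired analysis was possible because both 786-O-Ctrl columns of the count table carry the same replicate number. Over the 8 tested genes and 10 alternatives to the fit, 69 of 80 log2 fold changes kept their direction and their side of an FDR of 0.05. EPAS1, HIF1A, ARNT2 and EGLN3 did so throughout, between 1.32 and 1.503, 1.31 and 1.48, 0.53 and 0.70, and -4.41 and -4.18. With library totals alone, EGLN1 and CUL2 changed sign, to 0.072 and 0.10. HIF1AN was not called at -0.21 with DESeq2, -0.076 with library totals and -0.20 after thinning, so that 1 gene in place of 2 was lower under each; EGLN2 was called at 1.06 after thinning. With each library left out in turn, log2 fold changes were between -0.35 and -0.13 for ARNT, -0.24 and -0.13 for HIF1AN, -0.20 and 0.0092 for EGLN1, 0.25 and 0.98 for EGLN2, and -0.11 and 0.033 for CUL2, and the number of genes lower was between 1 and 2. The cause of these differences was not tested.

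Of the VHL ligase, DESeq2 called 1 gene higher and 1 lower, library totals 1 lower and thinning 1 higher, and with a library left out between 1 and 2 were called in either direction. Thinning called 3 other bHLH-PAS genes higher in place of 5. Counts over all tested genes moved as well, from 4017 higher and 3939 lower of 12335 to 2861 and 3147 with DESeq2, 5077 and 3097 with library totals and 2865 and 2885 of 10825 after thinning, and with a library left out to between 2902 and 4127 higher and 3125 and 4082 lower. DESeq2 called 0 fibroblast markers higher, and with a library left out between 0 and 1 were. Change in the EGLN3 share was -60.7 points with counts not divided by length and -63.6 points with the length of the canonical transcript, and between -59.2 and -55.2 points with a library left out. Leaving out a library leaves 1 in a group, which is then assumed to vary like the other group. The depth of 786-O-VHL replicate 1 limits genes with few counts there, among them EGLN2, EGLN3, AHRR, NPAS1, ALDOC, POU5F1, CA9, UPK1B, FAM111B and MME.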
